A study of Mus musculus with 12 samples.

Results

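The genes described here are the epidermal growth factor (EGF) receptors Egfr, Erbb2 and Erbb3 and the ligands Epgn, Hbegf, Areg, Tgfa, Ereg, Btc and Egf, taken by symbol: 10 genes (3 receptors and 7 ligands) of 34303 gene symbols. All 10 were in the table as single entries, and all 10 passed the filter on low values (1 FPKM or more in no fewer than 2 of the 12), as 14752 genes did. FPKM, fragments per kilobase of transcript scaled to library size, is a level per length, so levels of different genes can be set side by side. RNA was sequenced from C57Bl6 mice in 4 groups. Cutaneous squamous cell carcinomas (cSCC) came from TAp63-/- mice (n = 4) and from wild-type (WT) mice (n = 2), aged over 35 weeks and chronically irradiated with ultraviolet light (UVR, 2.5 kJ/m2, 3 times a week). Dorsal skin came from untreated, shaved TAp63-/- mice (n = 3) and WT mice (n = 3) aged 4 weeks. TAp63-/- mice lack the p63 isoforms with the N-terminal transactivation domain, and the labels name no restriction of the loss to a cell type. Nothing in the labels says whether each library came from a separate animal, so p-values measure the spread between these samples. Tumours and skin differ in age and irradiation as well as in being tumour or skin, and these cannot be told apart. Each library carries an identifier of its own and a title from 1 of 2 naming series, one for tumours and one for skin, whose meaning the labels do not give; what the series stand for cannot be told apart from tissue either.

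EGF-type ligands are made as precursors in the cell membrane and are released by metalloproteases of the ADAM family. They bind receptor tyrosine kinases of the ERBB family on the same or neighbouring cells, the receptors pair up, and signals run through the RAS-ERK and PI3K-AKT pathways. In the epidermis the pathway drives growth of basal keratinocytes, wound closure and hair follicle growth, and several of its targets are ligands and inhibitors of the pathway itself. Erbb2 binds no known ligand and acts as a partner of the other receptors, and Erbb3 has a weak kinase of its own and binds neuregulins.

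Of the ligand genes, Epgn, Ereg, Areg and Btc lie in a row within 376 kb of mouse chromosome 5. The stretches before the starts of Epgn, Areg and Btc are shown because these neighbours did not move alike: Epgn and Areg were higher and Btc was lower in tumours. The sequences are from RefSeq (GRCm38.p6), whose windows around gene starts matched 7 of the members by symbol, Hbegf not counted, with 2 windows for Egf. They lie at chr5:91027267-91027463 on the plus strand for Epgn, chr5:91139349-91139598 on the plus strand for Areg and chr5:91402995-91403244 on the minus strand for Btc. Each ends at the base before the start, and capitals mark a TATA box (TATAAA) or a cAMP response element (TGACGTCA).
Epgn: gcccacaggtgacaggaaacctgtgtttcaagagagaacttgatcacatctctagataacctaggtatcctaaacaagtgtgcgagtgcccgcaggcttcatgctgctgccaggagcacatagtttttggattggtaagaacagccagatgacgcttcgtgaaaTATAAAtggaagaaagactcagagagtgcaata
Areg: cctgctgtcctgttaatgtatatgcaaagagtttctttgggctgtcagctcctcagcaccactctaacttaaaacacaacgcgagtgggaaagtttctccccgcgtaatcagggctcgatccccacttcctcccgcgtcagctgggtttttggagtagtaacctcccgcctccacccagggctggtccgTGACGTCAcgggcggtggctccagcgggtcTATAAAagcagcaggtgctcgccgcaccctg
Btc: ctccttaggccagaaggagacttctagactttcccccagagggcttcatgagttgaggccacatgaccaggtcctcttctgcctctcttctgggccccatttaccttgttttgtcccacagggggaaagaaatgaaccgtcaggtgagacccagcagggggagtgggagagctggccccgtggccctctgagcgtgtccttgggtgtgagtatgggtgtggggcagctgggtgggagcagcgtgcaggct

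The windows of 250 bases before to 50 after each RefSeq start were searched on both strands for TATAAA, TGACGTCA, the AP-1 motif TGANTCA and the GC box GGGCGG. TGACGTCA reads the same on both strands, and otherwise no match overlapped another. Areg held TATAAA 31 bases and TGACGTCA 61 bases before its start, with a GC box between them and another after the start. Epgn held TATAAA 86 bases before the RefSeq start, which is 33 bases before the gene start in GENCODE. The Btc window held none of these letters. Among 32851 RefSeq windows of the same length, TATAAA was found in 13.6%, TGACGTCA in 1.8%, TGANTCA in 7.8% and GGGCGG in 35.7%. No window of the 7 members searched held TGANTCA, while Tgfa had 2 GC boxes and Egfr had 1. Hbegf, Erbb3 and Ereg were not searched.

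Between 13019 and 13073 symbols reached 1 FPKM per library, and the read depth is unknown. Trp63, which sums all p63 isoforms and so does not test the deletion, had 109 to 258 FPKM in TAp63-/- cSCC, 97.3 and 141 FPKM in WT cSCC, 84.5 to 111 FPKM in TAp63-/- skin and 100.4 to 119 FPKM in WT skin. Xist and Y-linked genes marked all 6 skin libraries and replicate 1 of TAp63-/- cSCC male, and 5 tumours female, so sex goes largely with tissue. Keratinocyte markers were present in every library, and the makeup of the samples went with tissue too, as given by the summed FPKM of marker lists. Basal keratinocyte markers summed to 7854 to 19472 FPKM in tumours and 2522 to 3513 FPKM in skin, and wound keratinocyte markers to 7104 to 29184 FPKM in tumours and 428 to 1366 FPKM in skin. Differentiated keratinocyte markers summed to 2044 to 10729 FPKM in tumours and 4484 to 13768 FPKM in skin. Skeletal muscle markers summed to 47.3 to 743 FPKM in tumours and 6182 to 11276 FPKM in skin, and fibroblast markers to 793 to 2594 FPKM in tumours and 2409 to 8772 FPKM in skin. Adipocyte markers summed to 54.9 to 2702 FPKM in tumours and 670.5 to 4067 FPKM in skin, sebaceous gland markers to 11.5 to 245 FPKM in tumours and 128 to 347 FPKM in skin, and Schwann cell markers to 9.38 to 21.5 FPKM in tumours and 59.2 to 129 FPKM in skin. Hair shaft and sheath markers summed to 6.46 to 3343 FPKM in tumours, the highest in WT replicate 2, and to 13.9 to 5006 FPKM in skin, the lowest in TAp63-/- replicate 1. Melanocyte markers summed to 1.51 to 46.6 FPKM in tumours and 20.2 to 197 FPKM in skin, and myeloid markers to 450 to 15867 FPKM in tumours and 309 to 752 FPKM in skin. The highest myeloid sum was that of TAp63-/- cSCC replicate 1, and the next, 2968 FPKM, that of TAp63-/- cSCC replicate 4. Endothelial markers summed to 56.3 to 77.1 FPKM in tumours and 47.3 to 66.3 FPKM in skin, and T cell markers to 11.7 to 81.8 FPKM in tumours and 19.5 to 38.7 FPKM in skin. Among the defining markers, Krt27, Krt28, Krt31 and Krt35 of hair, Mlana and Slc45a2 of melanocytes, Cidec of adipocytes, Sox10 of Schwann cells and Cd8a of T cells were listed at 0 in at least 1 library. The part of these markers and of sex in the results below was not tested. A fit with a sex term was run, but its sex estimate rests on TAp63-/- cSCC replicate 1 against the female tumours of that group. In WT mice sex goes fully with tissue. Calls kept or lost with a sex term therefore do not separate sex from tissue. In bulk samples, fewer cells of a type and less RNA per cell cannot be told apart.

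Epgn, Hbegf, Areg and Tgfa transcripts were more abundant in tumours than in skin in both genotypes, and Ereg passed the test in WT mice. Btc, Egf and Erbb2 were lower in every tumour than in every skin library, but only Btc and Egf passed, and only in TAp63-/- mice. No receptor passed in either genotype. The gene with the largest change among the members was Epgn, which encodes epigen, a ligand of Egfr. The gene (ENSMUSG00000035020) spans 91027464 to 91035215 on the plus strand of chromosome 5 in mm10, the build of all gene coordinates here. It had 43.6, 104, 169 and 136 FPKM in TAp63-/- cSCC, against 5.65, 3.33 and 3.48 FPKM in TAp63-/- skin. In WT cSCC it had 28.9 and 143 FPKM, against 5.84, 4.30 and 3.98 FPKM in WT skin. Every tumour stood above every skin library, with replicate 1 of each tumour group the lowest of its group. Mean Epgn was 27.3-fold higher in TAp63-/- cSCC than in TAp63-/- skin, and the log2 change was 4.34 (SE 0.53, limma adjusted p = 0.000224); log2 changes throughout are on the log2(FPKM + 1) scale, which understates the change of low genes. In WT mice the mean was 18.3-fold higher in cSCC than in skin, and the log2 change was 3.54 (SE 0.64, limma adjusted p = 0.00646). The WT change ran from 2.40 without cSCC replicate 2 to 4.68 without cSCC replicate 1, and with a sex term it was 1.94 and did not pass (adjusted p = 0.261).

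Hbegf, which encodes heparin-binding EGF-like growth factor, a ligand known for its part in keratinocyte migration in wounds, showed the same separation. The gene is ENSMUSG00000024486 on chromosome 18 (36504929 to 36515805, minus strand). It had 33.0, 15.8, 22.8 and 30.6 FPKM in TAp63-/- cSCC, against 1.60, 1.75 and 2.59 FPKM in TAp63-/- skin. WT cSCC had 27.7 and 46.8 FPKM, against 6.14, 2.97 and 1.86 FPKM in WT skin. The lowest tumour was thus still above the highest skin library, WT replicate 1. The mean was 12.9-fold higher in TAp63-/- cSCC than in TAp63-/- skin (log2 change 3.12, SE 0.34, limma adjusted p = 0.000121) and 10.2-fold higher in WT cSCC than in WT skin (3.10, SE 0.41, adjusted p = 0.00135). Hbegf was the member whose call held in both genotypes under every alternative run. These included the fit with a sex term, which rests on 1 male tumour and does not separate sex from tissue.

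Areg encodes amphiregulin, an autocrine growth factor of keratinocytes that binds Egfr. The gene (ENSMUSG00000029378) lies 112 kb after Epgn on chromosome 5 (91139615 to 91148432, plus strand). It had 9.01, 10.5, 18.3 and 11.1 FPKM in TAp63-/- cSCC, against 0.756, 1.75 and 3.32 FPKM in TAp63-/- skin. WT cSCC had 5.98 and 22.1 FPKM, against 2.83, 1.57 and 1.21 FPKM in WT skin. The tumours and the skin libraries did not overlap, though WT cSCC replicate 1 lay closer to skin than any other tumour. The log2 change was 2.22 in TAp63-/- mice (SE 0.43, limma adjusted p = 0.00371) and 2.18 in WT mice (SE 0.51, adjusted p = 0.0215). In WT mice the change was 1.32 without cSCC replicate 2 (adjusted p = 0.114), and the call was also lost without skin replicate 2 (adjusted p = 0.0684) or 3 (adjusted p = 0.0793) and with the WT libraries alone (adjusted p = 0.0633). With a sex term neither genotype passed, with changes of 1.86 in TAp63-/- mice (adjusted p = 0.0934) and 1.71 in WT mice (adjusted p = 0.313).

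Tgfa (ENSMUSG00000029999, chromosome 6, 86195251 to 86275449, plus strand), transforming growth factor alpha, a keratinocyte ligand of Egfr, was already well represented in skin. It had 16.7, 11.8, 26.4 and 27.5 FPKM in TAp63-/- cSCC, against 6.47, 6.56 and 11.3 FPKM in TAp63-/- skin. WT cSCC had 22.8 and 39.8 FPKM, against 12.5, 9.01 and 5.49 FPKM in WT skin. The groups separated within each genotype, but TAp63-/- cSCC replicate 2 lay below WT skin replicate 1. The log2 change was 1.21 in TAp63-/- mice (SE 0.36, limma adjusted p = 0.0279) and 1.70 in WT mice (SE 0.42, adjusted p = 0.0275). Tgfa was the least stable of the calls in TAp63-/- mice, lost without cSCC replicate 3 or 4 or skin replicate 1 or 2 (adjusted p between 0.0655 and 0.101), and in WT mice it was lost without either cSCC library or without skin replicate 2 or 3 (adjusted p between 0.0657 and 0.122).

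Ereg encodes epiregulin, a ligand of Egfr and of Erbb4. The gene (ENSMUSG00000029377) lies between Epgn and Areg (91074617 to 91093649, plus strand). It had 9.35, 7.82, 8.96 and 4.94 FPKM in TAp63-/- cSCC, against 8.35, 4.13 and 4.51 FPKM in TAp63-/- skin. These groups overlapped, and the log2 change of 0.42 did not pass the test (SE 0.30, limma adjusted p = 0.318). WT cSCC had 8.72 and 17.6 FPKM, against 4.28, 4.08 and 5.47 FPKM in WT skin, without overlap. The log2 change in WT mice was 1.27 (SE 0.35, adjusted p = 0.0421). It was 0.80 without cSCC replicate 2 (adjusted p = 0.206), and leaving out any of the 3 skin libraries also ended the call (adjusted p between 0.0839 and 0.121).

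Btc (ENSMUSG00000082361, chromosome 5, 91357261 to 91402994, minus strand), betacellulin, a ligand of Egfr and Erbb4, ran the other way. It had 1.05, 2.06, 1.08 and 2.08 FPKM in TAp63-/- cSCC, against 21.4, 9.56 and 4.98 FPKM in TAp63-/- skin. WT cSCC had 1.82 and 2.15 FPKM, against 5.31, 4.62 and 8.31 FPKM in WT skin. Every tumour was below every skin library, and TAp63-/- skin replicate 1 was far above the rest. Btc fell by 2.15 on the log2 scale in TAp63-/- cSCC relative to TAp63-/- skin (SE 0.38, limma adjusted p = 0.00227), and by 1.66 without that skin library (adjusted p = 0.00597). In WT mice the log2 difference was -1.21 and did not pass (SE 0.46, adjusted p = 0.111).

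Egf itself (ENSMUSG00000028017, chromosome 3, 129677575 to 129755322, minus strand) had the lowest mean of the ligands in all 4 groups. It was listed at 0.150, 0.118, 0.423 and 0.0657 FPKM in TAp63-/- cSCC, against 2.52, 1.11 and 0.817 FPKM in TAp63-/- skin. WT cSCC had 0.116 and 0.332 FPKM, against 0.880, 0.956 and 1.11 FPKM in WT skin. No tumour reached the lowest skin library. Only skin libraries reached 1 FPKM, so Egf entered the test through the tissue where it was higher. Egf fell by 1.01 on the log2(FPKM + 1) scale in TAp63-/- cSCC (SE 0.24, limma adjusted p = 0.0105), while in WT mice the difference of -0.70 did not pass (SE 0.28, adjusted p = 0.136). At these low levels the pseudocount sets the size: with 0.1 in place of 1 the differences were -2.45 and -1.82 (adjusted p = 0.00807 and 0.0971), in TAp63-/- and WT mice in that order.

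**Figure D1:**
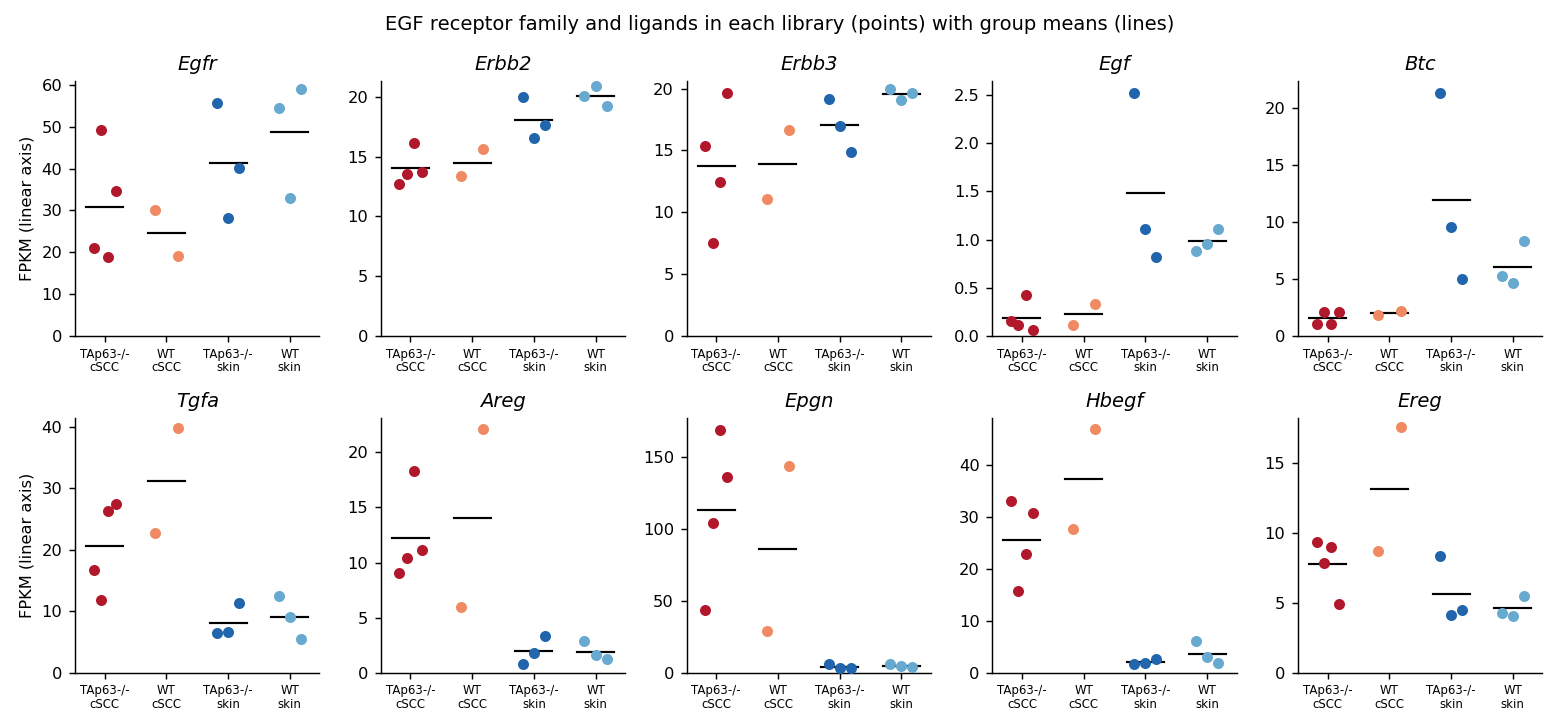
FPKM (vertical axis, linear, from 0) of each member in each of the 12 libraries; points are libraries, horizontal lines are group means, and colours are the 4 groups. Epgn, Areg and Hbegf are higher in all 6 tumours than in all 6 skin libraries, Btc, Egf and Erbb2 are lower, and the points of Egfr, Erbb3, Tgfa and Ereg overlap between tissues.

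The receptors were transcribed in every library at 7.49 FPKM or more. Egfr (ENSMUSG00000020122, chromosome 11, 16752203 to 16918158, plus strand), which binds every ligand among the members, had 21.1, 49.2, 18.9 and 34.6 FPKM in TAp63-/- cSCC, against 55.8, 28.1 and 40.2 FPKM in TAp63-/- skin. WT cSCC had 30.0 and 19.1 FPKM, against 54.5, 33.1 and 59.0 FPKM in WT skin. The spread within groups was wide, and the log2 differences of -0.46 in TAp63-/- mice (SE 0.36, limma adjusted p = 0.374) and -0.95 in WT mice (SE 0.43, adjusted p = 0.176) did not pass. Erbb2 (ENSMUSG00000062312) lies on the same chromosome (98412470 to 98437716, plus strand). It had 12.7, 13.5, 16.2 and 13.7 FPKM in TAp63-/- cSCC, against 19.95, 16.5 and 17.7 FPKM in TAp63-/- skin. WT cSCC had 13.4 and 15.6 FPKM, against 20.1, 20.9 and 19.2 FPKM in WT skin. Its libraries did not overlap between tissues, yet the differences were small, -0.34 (SE 0.14, adjusted p = 0.0973) and -0.45 (SE 0.17, adjusted p = 0.115) in TAp63-/- and WT mice in that order. With median-of-ratios scaling the difference in TAp63-/- mice was -0.43 and passed (adjusted p = 0.0476). Erbb3 (ENSMUSG00000018166) lies on chromosome 10 (128567523 to 128589652, minus strand). It had 15.4, 7.49, 12.5 and 19.7 FPKM in TAp63-/- cSCC, against 19.2, 17.0 and 14.9 FPKM in TAp63-/- skin. WT cSCC had 11.1 and 16.6 FPKM, against 19.98, 19.1 and 19.6 FPKM in WT skin. Neither the difference of -0.35 in TAp63-/- mice (SE 0.27, adjusted p = 0.354) nor that of -0.49 in WT mice (SE 0.32, adjusted p = 0.350) passed.

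Counted over the members, 4 rose (Epgn, Hbegf, Areg and Tgfa), 2 fell (Btc and Egf) and 4 did not pass in TAp63-/- cSCC relative to TAp63-/- skin. Of all tested genes, 27.2% passed in that comparison, 13.0% higher and 14.2% lower. In WT cSCC relative to WT skin, 5 rose (the same 4 and Ereg), none fell and 5 did not pass, where 11.4% of all tested genes passed, 4.66% higher and 6.77% lower. Passing as higher in both comparisons were 4 of the 10 members, against 4.02% of tested genes, and as lower none, against 6.24%. The members were chosen with earlier results of these data known, so their counts are a description. In TAp63-/- mice the groups did not overlap for 7 members, 4 higher and 3 lower, where 34.0% of tested genes did not overlap (17.8% higher, 16.2% lower). In WT mice they did not overlap for all 10, 5 higher and 5 lower, where 52.8% of tested genes did not (27.3% higher, 25.5% lower). The members' median log2 change was 0.038 in TAp63-/- mice and 0.41 in WT mice, beside 0.096 and 0.041 over all tested genes. With all 6 tumours set against all 6 skin libraries, 3 members were higher without overlap (Epgn, Hbegf and Areg), as were 11.0% of tested genes, and 3 were lower (Btc, Egf and Erbb2), as were 10.9%. With a sex term in the fit, a choice made after seeing the data, 3 members passed in TAp63-/- mice (Epgn, Hbegf and Btc) and 1 in WT mice (Hbegf).

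**Figure D2:**
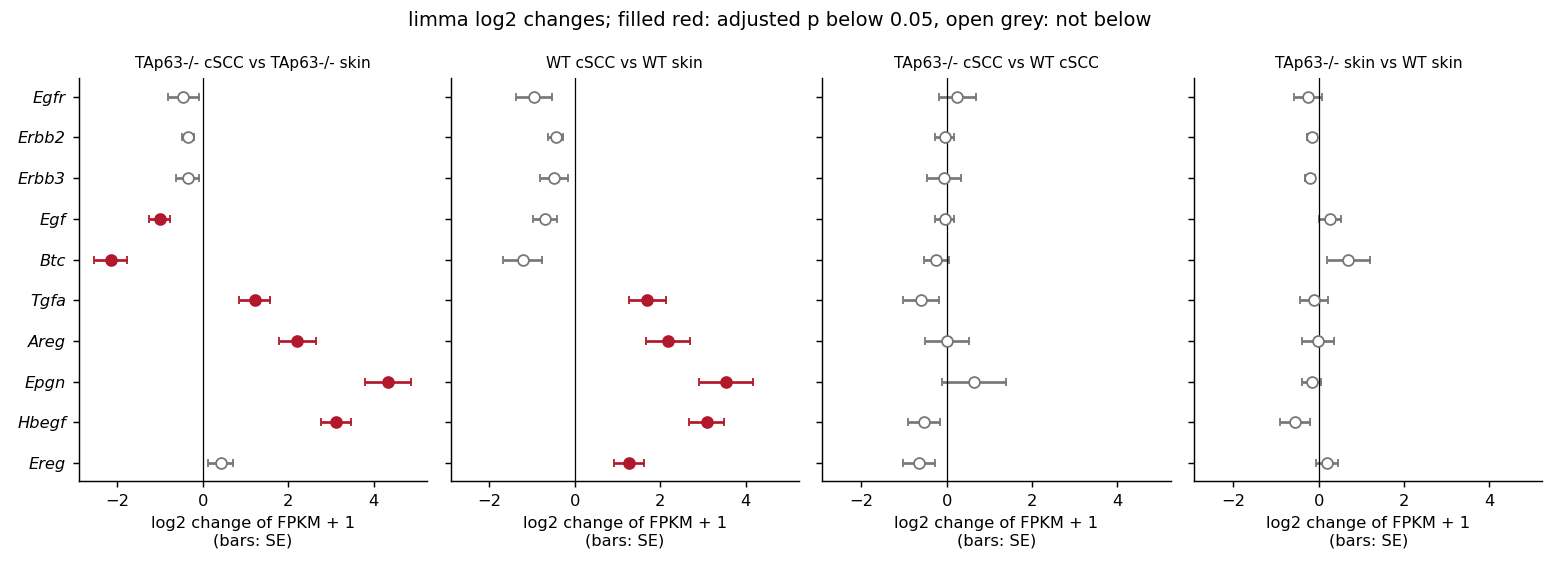
log2 change of FPKM + 1 (horizontal axis) of each member (rows) in 4 comparisons; points are limma estimates, bars are 1 SE, filled red points have an adjusted p below 0.05 and open grey points do not. Filled points appear in the tumour-skin panels only: 4 to the right and 2 to the left in TAp63-/- mice, and 5 to the right in WT mice.

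The makeup of the ligand transcripts differed between tissues as well as their amount. Summed over the 7 ligand genes, the level was 113, 152, 247 and 213 FPKM in TAp63-/- cSCC, against 46.7, 28.2 and 31.0 FPKM in TAp63-/- skin. WT cSCC had 96.0 and 272 FPKM, against 37.7, 27.5 and 27.4 FPKM in WT skin. The lowest tumour sum was thus above the highest skin sum, while the summed level of the 3 receptors ran from 47.5 to 70.2 FPKM in tumours and from 61.7 to 97.8 FPKM in skin. Epgn was the most abundant ligand transcript in all 6 tumours, at 30.1% to 68.5% of the sum. Its lead was small in WT cSCC replicate 1 (30.1%, with Hbegf at 28.8%). In skin Epgn made up 11.2% to 15.6%, and the most abundant ligand was Btc in 3 libraries (TAp63-/- replicates 1 and 2 and WT replicate 3, 30.3% to 45.8%) and Tgfa in the other 3 (32.8% to 36.4%). Btc made up 0.439% to 1.89% of the sum in tumours and 14.1% to 45.8% in skin. Hbegf made up 9.22% to 29.3% in tumours and 3.42% to 16.3% in skin. Shares of 1 sum depend on each other, and they are given as a description with no test.

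**Figure D3:**
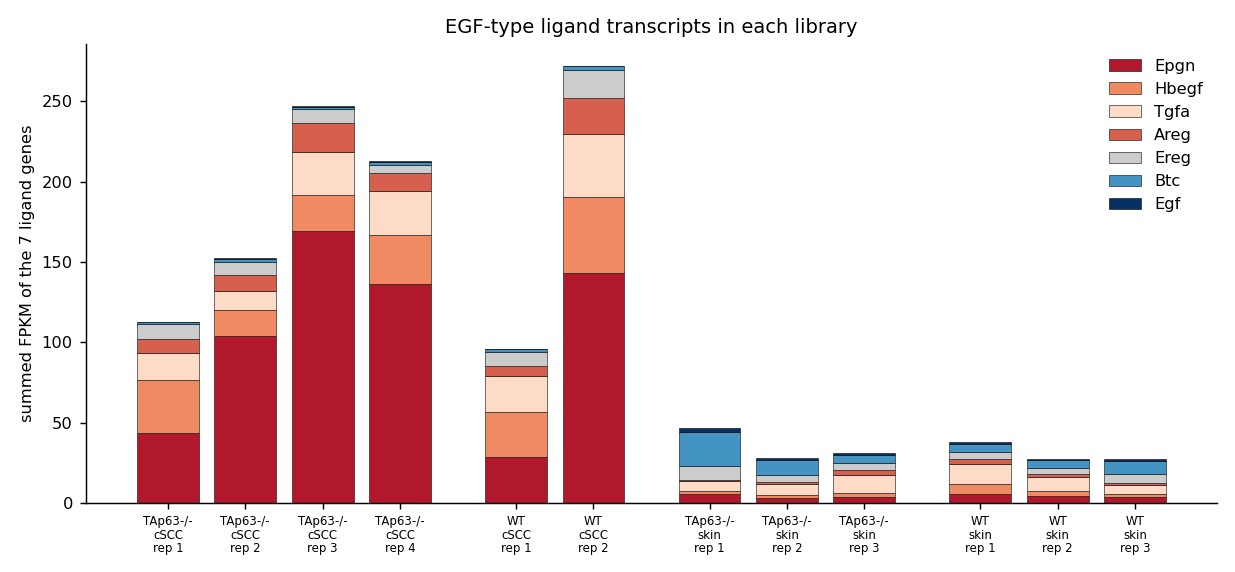
Summed FPKM of the 7 ligand genes (vertical axis, linear, from 0) in each library, with each bar split by ligand. The 6 tumour bars reach 96.0 to 272 FPKM and are mostly Epgn, Hbegf and Tgfa, and the 6 skin bars reach 27.4 to 46.7 FPKM with a larger share of Btc.

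No member passed the test between genotypes within a tissue. Between TAp63-/- and WT cSCC, limma called 0 of the 10 members and 0% of the 14752 tested genes, and no member had an unadjusted p below 0.05, as 2.84% of tested genes did. The log2 differences, TAp63-/- minus WT, ran from -0.65 for Ereg (SE 0.38) and -0.60 for Tgfa (SE 0.42) to 0.64 for Epgn (SE 0.75), all with an adjusted p of 1. The ranges overlapped for all 10 members, while 9.85% of tested genes did not overlap (5.71% higher, 4.14% lower). WT cSCC replicate 2 was the highest of the 6 tumours for Tgfa, Areg, Hbegf, Btc and Ereg and the second highest for Epgn, while WT cSCC replicate 1 was the lowest for Areg and Epgn. With 2 WT tumours that differ this much, the standard errors are wide, and a missed threshold does not show that the genotypes were alike.

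Between TAp63-/- and WT skin, limma again called 0 of the 10 members, and 0.0203% of tested genes passed. No member had an unadjusted p below 0.05, as 738 of the tested genes did. The largest differences were those of Btc, 0.70 (SE 0.50, adjusted p = 0.923), and Hbegf, -0.55 (SE 0.35, adjusted p = 0.923). Btc averaged 11.97 ± 8.46 FPKM in TAp63-/- skin and 6.08 ± 1.97 FPKM in WT skin (SD, n = 3 each), the first of these resting on replicate 1. Hbegf averaged 1.98 ± 0.53 FPKM in TAp63-/- skin and 3.65 ± 2.22 FPKM in WT skin (SD, n = 3 each), and the ranges overlapped. The genotype by tissue interaction, which tests whether the tumour-skin change differed between genotypes, called 0 of the 10 members and 0.0271% of tested genes (limma; no member had an unadjusted p below 0.05, as 3.01% of tested genes did). So Ereg, which passed in WT mice and missed in TAp63-/- mice, had an interaction of -0.85 (SE 0.46, adjusted p = 0.9998), and Btc, which passed in TAp63-/- mice and missed in WT mice, one of -0.94 (SE 0.60, adjusted p = 0.9998). The changes of neither gene were shown to differ between genotypes.

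The ERBB genes outside the members are Erbb4, the receptor that several of these ligands share with Egfr, and the neuregulins Nrg1 to Nrg4, ligands of Erbb3 and Erbb4. Nrg1 had 1.93, 3.50, 8.56 and 4.74 FPKM in TAp63-/- cSCC, against 0.172, 0.0266 and 0.116 FPKM in TAp63-/- skin. WT cSCC had 14.8 and 3.85 FPKM, against 0.139, 0.170 and 0.101 FPKM in WT skin. It was at 0.172 FPKM or less in all skin libraries and rose in both genotypes, by 2.23 in TAp63-/- mice (SE 0.42, limma adjusted p = 0.00322) and 2.95 in WT mice (SE 0.50, adjusted p = 0.00490). With a sex term it passed in neither (adjusted p = 0.132 in TAp63-/- and 0.209 in WT mice), and in WT mice the call was also lost without cSCC replicate 1 (adjusted p = 0.0561). Nrg4 had 7.64, 1.01, 1.49 and 3.60 FPKM in TAp63-/- cSCC, against 14.2, 10.6 and 12.9 FPKM in TAp63-/- skin, and fell by 1.84 on the log2 scale (SE 0.51, adjusted p = 0.0221). That call was lost without cSCC replicate 3 or any 1 of the 3 skin libraries (adjusted p between 0.0501 and 0.0754), and with a sex term the difference was -0.64 (adjusted p = 0.545). In WT mice it did not pass, with 3.55 and 11.3 FPKM in cSCC, against 3.99, 7.35 and 11.1 FPKM in skin. Erbb4 was listed at 0 to 0.00216 FPKM in tumours and 0.0115 to 0.103 FPKM in skin, and Nrg3 at 0 in most libraries. Neither passed the filter on low values. Nrg2 did not pass it either, with 0.212 to 0.868 FPKM in TAp63-/- cSCC, 0.593 and 1.59 FPKM in WT cSCC, and 0.361 to 0.586 FPKM over the 6 skin libraries.

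Genes that act around the receptors were counted in 4 lists, beside the 13.0% of tested genes that rose and 14.2% that fell in TAp63-/- mice and the 4.66% and 6.77% in WT mice. The lists were chosen with earlier results of these data known, so their counts are a description. Of 12 ligand sheddases and their regulators, 2 rose and none fell in TAp63-/- cSCC, and 1 rose in WT cSCC, with medians of 0.51 and 0.40. Adam8, a metalloprotease best known from myeloid cells, rose in both genotypes, by 2.67 in TAp63-/- mice (SE 0.40, limma adjusted p = 0.000789) and 1.78 in WT mice (SE 0.48, adjusted p = 0.0366). The WT call was lost in 7 of 13 alternatives: with no filter, array weights or a sex term, and without cSCC replicate 1 or any 1 of the 3 skin libraries (adjusted p between 0.0660 and 0.264). Of the myeloid markers 3 of 8 rose in TAp63-/- mice and 2 of 8 in WT mice. The part of myeloid cells in the change of Adam8 was not tested. Adam10, which releases Egf and Btc from the membrane, had 53.0 to 81.4 FPKM in TAp63-/- cSCC, against 33.0 to 43.1 FPKM in TAp63-/- skin, and rose by 0.79 (SE 0.18, adjusted p = 0.00825).

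Of 18 feedback inhibitors of the receptors and of ERK, 3 rose and 1 fell in TAp63-/- cSCC, and 1 fell in WT cSCC, with medians of 0.17 and 0.038. These 4 of 18 and 1 of 18 stand beside 27.2% and 11.4% of tested genes. In TAp63-/- mice Socs3, an inhibitor of cytokine signalling, rose by 1.56 (SE 0.29, limma adjusted p = 0.00274), and Cblb, a ubiquitin ligase that acts on active receptors, rose by 1.29 (SE 0.30, adjusted p = 0.00947). Lrig1, a membrane protein that promotes loss of ERBB receptors, had 6.44, 6.86, 8.03 and 10.9 FPKM in TAp63-/- cSCC, against 15.9, 17.4 and 16.0 FPKM in TAp63-/- skin. It fell by 0.97 on the log2 scale (SE 0.20, adjusted p = 0.00453). Spry1, an inhibitor of the RAS-ERK relay, fell by 0.93 in WT cSCC (SE 0.26, adjusted p = 0.0453). Its call was lost in 8 of 13 alternatives: with no filter, median-of-ratios, the WT libraries alone or a sex term, and without cSCC replicate 1 or any 1 of the skin libraries (adjusted p between 0.0513 and 0.360).

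Of 22 adaptors and relays of the RAS-ERK and PI3K pathways, 2 rose and 2 fell in TAp63-/- cSCC and 1 fell in WT cSCC, with medians of 0.14 and 0.082, close to those of all tested genes. Pik3r1, a regulatory subunit of PI3K, fell by 1.30 in TAp63-/- mice (SE 0.30, limma adjusted p = 0.00923) and 1.24 in WT mice (SE 0.36, adjusted p = 0.0481). In TAp63-/- mice the catalytic subunit gene Pik3cb fell by 0.68 (SE 0.16, adjusted p = 0.00950), and the transcription factor gene Stat3 rose by 0.68 (SE 0.18, adjusted p = 0.0166). In WT mice the call of Pik3r1 held in 3 of 13 alternatives (filter of 5 FPKM, array weights and the WT libraries alone) and was lost in the other 10 (adjusted p between 0.0507 and 0.683), among them each of the 5 with 1 library left out. In TAp63-/- mice a sex term ended the calls of Pik3r1 (adjusted p = 0.268), Pik3cb (0.0532) and Stat3 (0.0904), with none of the 22 passing in either genotype, and that of Stat3 was also lost without skin replicate 3 (0.0655) and with the TAp63-/- libraries alone (0.0527).

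The list with most calls was that of genes known to respond to ERK: of 14, 8 rose and none fell in TAp63-/- cSCC, and 5 rose and none fell in WT cSCC, with medians of 1.44 and 1.25. Their summed level was 500.0 to 678 FPKM in TAp63-/- cSCC, against 192 to 276 FPKM in TAp63-/- skin, and 656 and 812 FPKM in WT cSCC, against 330 to 498 FPKM in WT skin. Fosl1, which encodes the AP-1 subunit Fra-1, had 5.47, 9.67, 9.78 and 11.9 FPKM in TAp63-/- cSCC, against 0.581, 0.0314 and 0.160 FPKM in TAp63-/- skin. WT cSCC had 18.3 and 16.5 FPKM, against 0.651, 0.538 and 0.448 FPKM in WT skin. It rose by 3.00 in TAp63-/- mice (SE 0.24, limma adjusted p = 2.1e-05) and 3.57 in WT mice (SE 0.29, adjusted p = 0.000184). Phlda1 rose by 1.64 (SE 0.32, adjusted p = 0.00391) and 2.26 (SE 0.38, adjusted p = 0.00475) in TAp63-/- and WT mice in that order. Junb, another AP-1 subunit, rose by 1.44 in TAp63-/- mice (SE 0.24, adjusted p = 0.00145). The early response gene Ier3 rose by 1.45 in TAp63-/- mice (adjusted p = 0.00555) and 1.64 in WT mice (SE 0.36, adjusted p = 0.0164). In TAp63-/- mice the Ier3 call was lost in 1 of 15 alternatives, the sex term (adjusted p = 0.231). In WT mice it was lost without cSCC replicate 1 (change 1.75) or 2 (change 1.52). The WT call of Ier3 was also lost without skin replicate 2 (adjusted p = 0.0575) or 3 (0.0647) and with a sex term (0.526). Among the WT fits that kept both tumours, the count dropped to 2 without skin replicate 2, without skin replicate 3 or with a sex term. Dropping either WT tumour leaves 1 library in that group, so no count is given for those fits. The median change of the list then depended on which WT tumour was kept. It was 0.76 when only replicate 2 remained and 1.91 when only replicate 1 remained, beside 1.25 with both. In TAp63-/- mice the count ran from 5, with a sex term, to 9, and was 6 without skin replicate 1 or 2. Basal keratinocyte markers moved the same way, 6 of 8 rising in TAp63-/- mice and 1 of 8 in WT mice, and wound keratinocyte markers rose in 5 of 6 in each, and the part of these cells in the list was not tested. No gene of these lists passed in either comparison of genotypes or in the interaction (limma).

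**Figure D4:**
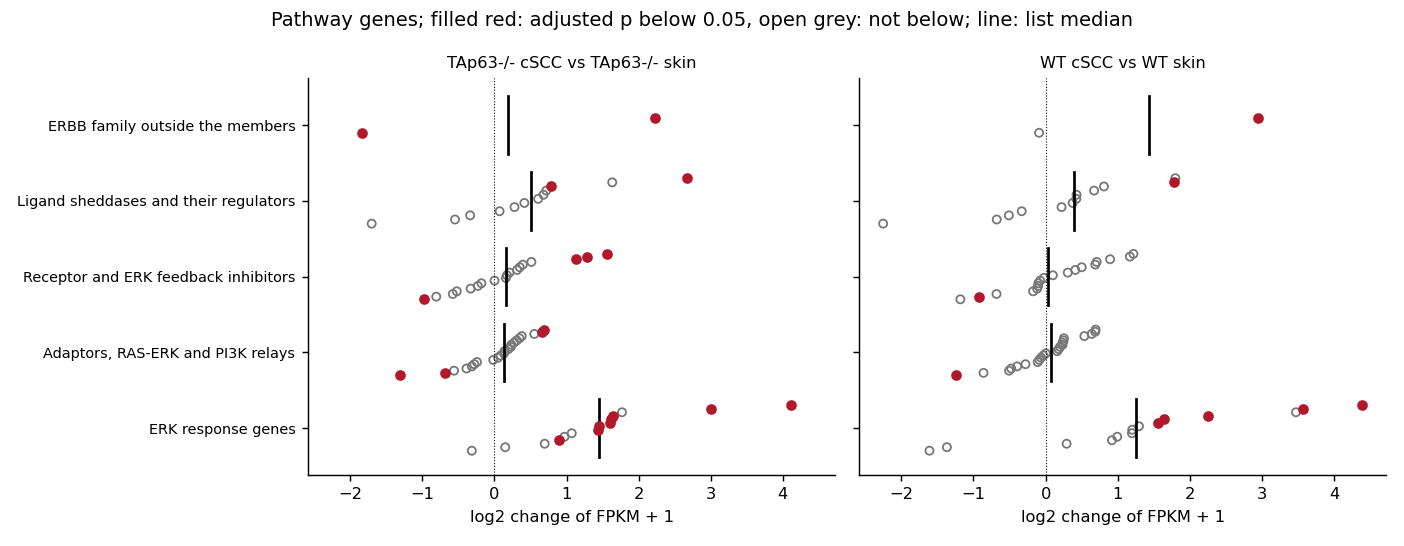
log2 change of FPKM + 1 (horizontal axis) of the tested genes of 5 pathway lists (rows) in TAp63-/- mice (left) and WT mice (right), each cSCC against skin; filled red points have an adjusted p below 0.05, open grey points do not, and black lines are list medians. The ERK response genes have medians of 1.44 and 1.25, the first of these the highest of the 5 lists in TAp63-/- mice. In WT mice the ERBB genes outside the members, with 2 tested genes, have a higher median, 1.43. The relays sit around 0.

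The neighbourhood of the chromosome 5 ligands, from 200 kb before Epgn to 200 kb after Btc, held 8 genes with a symbol of their own, all of them tested. Apart from the 4 ligands these were Cxcl1 and Cxcl2, which encode chemokines that attract neutrophils, Mthfd2l, which encodes a mitochondrial folate enzyme, and Parm1, which encodes a mucin-like membrane protein. Cxcl1 lies 136 kb before Epgn and had 3.64 to 63.4 FPKM in TAp63-/- cSCC, against 0.0955 to 0.610 FPKM in TAp63-/- skin. It rose by 3.40 (SE 0.81, limma adjusted p = 0.0111), and in WT mice its change of 3.25 did not pass (SE 0.97, adjusted p = 0.0530). Cxcl2 rose by 3.21 in TAp63-/- mice (SE 0.89, adjusted p = 0.0225), Mthfd2l by 1.13 (SE 0.31, adjusted p = 0.0195) and Parm1 by 1.25 (SE 0.29, adjusted p = 0.00991). None of these 3 passed in WT mice, with changes of 3.40, 1.06 and 0.68 (adjusted p = 0.0637, 0.0863 and 0.229). With a sex term Cxcl1, Cxcl2 and Mthfd2l did not pass in TAp63-/- mice (adjusted p = 0.298, 0.173 and 0.463). The calls of Cxcl2 and Mthfd2l were also lost with the TAp63-/- libraries alone and without skin replicate 1 or 3, and that of Mthfd2l without skin replicate 2 (adjusted p between 0.0518 and 0.0846). Btc was thus the one gene of the 8 with a negative change, and it lies between Areg and Parm1, on the opposite strand to Epgn, Ereg and Areg.

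**Figure D5:**
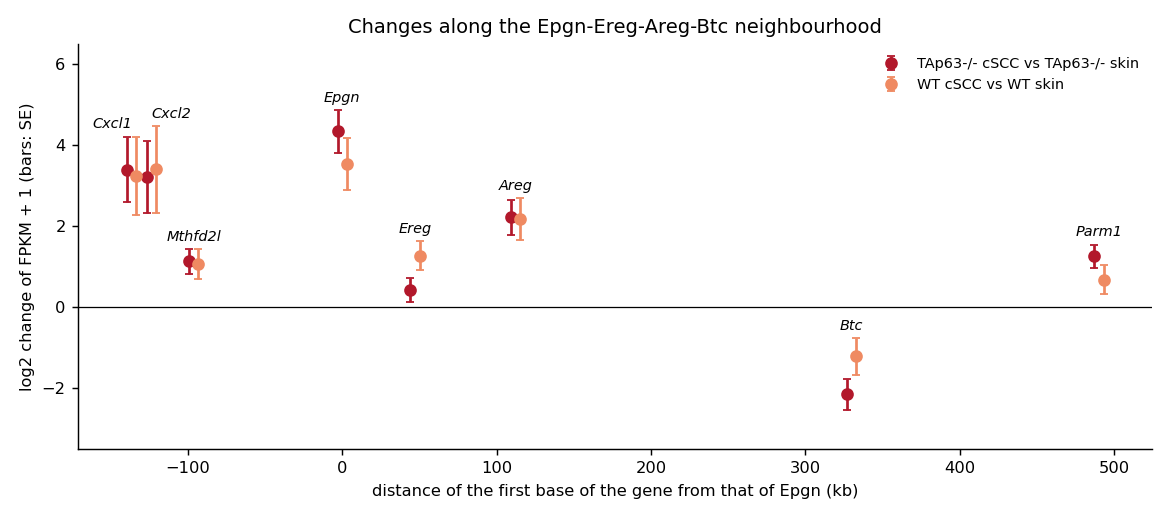
log2 change of FPKM + 1 (vertical axis) of the 8 genes against the distance of their lowest coordinate from that of Epgn in kb (horizontal axis); points are limma estimates in TAp63-/- mice (dark red) and WT mice (orange), bars are 1 SE. All points lie above 0 except those of Btc, at -2.15 and -1.21.

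Other genes whose profile over the 12 libraries was most like each member's were ranked by the root mean square difference of log2(FPKM + 1) after centring each profile, over 13313 genes. For Epgn, Ifi202b (0.54) was among them. For Hbegf they were Aqp3 (0.34), a water and glycerol channel of keratinocytes, and Fabp5 (0.40), an epidermal fatty acid binding protein. For Areg they were Trex2 (0.39) and Tmprss11e (0.44), for Tgfa Sfn (0.23), the keratinocyte 14-3-3 protein stratifin, and Atg9b (0.30), and for Ereg Hk2 (0.31), a hexokinase, and Itprip (0.31). For Btc they were Kazald1 (0.27) and Acss3 (0.27), and for Egf Ugp2 (0.14) and Eef2k (0.14). Among the receptors, Egfr was closest to Plec (0.24), which encodes plectin, and Rnd3 (0.27), Erbb2 to Tmem167b (0.11) and Sod2 (0.11), and Erbb3 to Trim29 (0.16) and Cir1 (0.19). The 12 libraries of a profile share the tissue difference, so likeness follows it, and it is given as a description.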

How the data were processed

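RNA sequencing of 12 mouse libraries was used. Per the labels' protocols, total RNA was extracted with the Ambion miRVANA kit and libraries were made with the Illumina TruSeq kit. Per the submitters' processing notes, TopHat2 2.0 and Cufflinks 2.0 were run with the mouse build mm10. The deposited values are FPKM, a unit inferred from Cufflinks and the values. All columns share 1 distribution (at least 98.9% of sorted values within 1%), from which quantile normalization by the authors was inferred; such a step would hide differences in the overall distribution. Depth is unknown, so no counting interval is given.

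The 37924 entries were summed to 34303 symbols (272 had several entries). A gene was tested where 2 or more libraries reached 1 FPKM (14752 genes). Tests were run on log2(FPKM + 1) in limma 3.58.1 (R 4.3.3, variance trend, Benjamini-Hochberg adjustment over the tested genes, two-sided, threshold 0.05). Tumour-skin comparisons and the interaction used all 12 libraries, and genotype comparisons used the 6 libraries of the tissue. Lists held 162 genes, of which 161 were in the table and 158 were tested. All members were described; of each pathway list the 3 called genes with the smallest p in each comparison were named, of the ERBB genes outside the members and the chromosome 5 neighbours all tested ones, and for likeness the 2 closest genes per member. A gene that this rule names is not reported here. The members and lists were chosen with earlier results of these data known. The fits were also run on simulated data with normally distributed values. The data need not follow that distribution, and no statement here rests on that run. Alternatives covered the pseudocount (0.1), the filter (none, 5 FPKM), median-of-ratios scaling, no trend, array weights, the libraries in the fit, each library left out and, chosen after seeing the data, a sex term. The sex term rests on 1 male tumour, TAp63-/- cSCC replicate 1.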

Additional observations from a re-analysis of the deposited data

Results flagged for a closer look

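Of 29 quantities checked for a library far from the others in TAp63-/- cSCC, the group with 4 libraries, 2 stood out, and chance alone flags about 1 in 20 such groups. Erbb4 was listed at 0.00216 FPKM in replicate 2 and at 0 in the other 3 libraries. Nrg3 was listed at 0.00346 FPKM in replicate 2 and at 0 in the other 3. Both values lie far below the filter of 1 FPKM. With the other libraries at 0, any value above 0 is flagged, so the rate of 1 in 20 does not apply to these flags.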

How the results depend on the processing

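Directions of all members held in both tumour-skin comparisons under every alternative run. Of the members' 278 values there, 29 lost their call and 2 gained one. With a sex term, 1939 genes passed in TAp63-/- mice (4017 without it), of which 3 members, and 255 in WT mice (1687 without it), of which 1 member; in TAp63-/- mice Egf (-1.05, adjusted p = 0.0885), Areg (1.86, 0.0934) and Tgfa (0.998, 0.265) lost their calls, and in WT mice Epgn did (1.94, 0.261). In WT mice 3 members passed with no filter and 3 with the WT libraries alone, where Btc gained a call (adjusted p = 0.0460). Tgfa lost its call with no filter in TAp63-/- mice (adjusted p = 0.0503). In WT mice Tgfa lost it with no filter (0.0521), with the WT libraries alone (0.0521) and with a sex term (0.316), Areg with the WT libraries alone (0.0633) and a sex term (0.313), and Ereg with no filter (0.0737), median-of-ratios (0.0514), the WT libraries alone (0.0603) and a sex term (0.171). Leaving out 1 library gave 2432 to 4446 genes (fewest without skin replicate 1) and 5 to 6 members in TAp63-/- mice, and 464 to 1907 genes (fewest without cSCC replicate 1) and 2 to 4 members in WT mice. Between tumours, 9 genes passed with no filter, 1 with all 12 libraries and 0 to 11 with 1 library left out. Between skin groups, 5 passed with a pseudocount of 0.1 and 3 to 8 with 1 library left out, and for the interaction 1 to 15. No member passed in these 3 comparisons under any alternative.

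Of the members' 457 values there, 37 changed sign, none past the threshold. Between tumours, Areg was -0.062 with median-of-ratios and -0.026 with array weights (0.012 as reported), and Erbb3 was 0.19 with array weights. In skin, Areg was 0.12 with array weights. For the interaction, Areg was -0.019 with median-of-ratios and -0.14 with array weights, and Hbegf was -0.026 with median-of-ratios and -0.12 with a sex term. With 1 library left out, values between tumours ran from -0.85 to 0.87 for Areg, -0.50 to 1.77 for Epgn, -0.060 to 0.57 for Egfr, -0.15 to 0.055 for Erbb2, -0.33 to 0.21 for Erbb3 and -0.17 to 0.082 for Egf. In skin they ran from -0.39 to 0.13 for Tgfa, -0.35 to 0.30 for Areg, -0.015 to 0.46 for Egf and -0.070 to 0.36 for Ereg. For the interaction they ran from -0.13 to 0.41 for Erbb3, -0.83 to 0.90 for Areg, -0.34 to 1.94 for Epgn and -0.35 to 0.39 for Hbegf. The cause of these shifts was not tested. With a filter of 5 FPKM, Egf was not tested. No paired analysis was possible because the labels give no replicate numbers that groups share. WT cSCC has 2 libraries, age, irradiation and largely sex go with tissue, and without depth the precision of low values such as Egf is not known.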
